A study of Drosophila melanogaster with 12 samples.

Results

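Cuticle protein genes were examined in whole adult male Drosophila melanogaster. A gene was taken as a member when its current symbol begins with Cpr and a digit, Lcp, Ccp84, Edg or Twdl, or is Acp1. By this rule 103 of the 11983 genes named on the Affymetrix array were members, and each was represented by its probe set with the highest mean over all arrays. Of the 103, 42 lay above background (40.8%), against 86.9% of all named genes. The flies were wild-type Canton-S males, put on a high-sugar or a control diet at an age of 3 to 5 days. The 4 groups were high sugar for 4 weeks and control for 4 weeks, both killed at 31 to 33 days of age, and high sugar for 2 days and control for 2 days, both killed at 5 to 7 days of age. Each group held 3 arrays that the labels call biological replicates, and neither the number of flies behind an array nor the make-up of the diets is given in the sources used here. Longer feeding and greater age came together, so in all that follows they cannot be told apart.

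Insect cuticle is an extracellular layer of chitin fibres embedded in protein, secreted by the epidermis and also lining the foregut, hindgut and tracheae and forming the lenses of the eye. Most Cpr, Lcp, Ccp84 and Edg proteins carry the Rebers and Riddiford consensus, a chitin-binding stretch, while Tweedle proteins form a separate insect family of cuticle proteins. Many of these genes are transcribed in bursts around moults and in the late pupa, under the control of ecdysone pulses, and in young adults the epidermis goes on adding inner cuticle for some days after eclosion. For most single Cpr genes no role beyond this family membership is given here.

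The deposited values are linear intensities, with array medians between 87.0 and 93.4, and with 3 arrays a group their number sets the precision. Pearson's r between arrays of 1 group, across genes and so not across independent replicates, ran from 0.984 to 0.993. Accessory gland genes, which are specific to males, were bright, and yolk genes, made in quantity by females, were far less bright. The summed intensity of 5 accessory gland genes was 21833 to 26579 on high sugar and 23436 to 29018 on control diet at 4 weeks, and 40838 to 46918 and 42434 to 45484 at 2 days. The yolk protein genes Yp1 and Yp3 summed to no more than 233 on any array, and Yp2 lay under the background filter. Yp3 had a mean log2 intensity of 6.63 and Yp1 of 4.84. From 2 days to 4 weeks Yp1 rose by 2.03 log2 units on high sugar and 2.57 on control diet. Its 2-day group means were close to the floor and under the background filter. Yp1 therefore passed the filter through the 4-week groups, and the size of its rise rests on dim signals. Yp3 moved by 0.07 and -0.30. Because RNA came from whole flies, fewer cells of a type and less RNA per cell cannot be told apart.

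Most of the 42 members above background were Cpr genes, and the Lcp, Ccp84 and Edg families gave little or no usable signal. Above background meant a mean log2 intensity of at least 4.30, the 30th percentile of all probe sets, after values under 11.8 had been raised to that floor. Of 66 Cpr genes 30 passed, of 24 Tweedle genes 10, and of 7 Lcp genes 2 (Lcp65Aa and Lcp65Ac). None of the 3 Ccp84 genes passed, nor did any of the 3 Edg genes, which are named for their dependence on ecdysone. Edg78E averaged 14.1 ± 5.32 on high sugar and 14.9 ± 5.21 on control diet at 4 weeks, and 18.1 ± 6.92 and 19.2 ± 5.72 at 2 days (SD, n = 3 each), all close to the floor. Edg91 was above the floor on 7 of 12 arrays, and Edg84A was at the floor on all 12, as were 9 other members. Of the 61 members that did not pass, 30 were above the floor on at least 6 arrays. Around the filter stood Cpr47Eb and TwdlN, just inside with means of 4.34 and 4.30, and Cpr78E and TwdlC, just outside with 4.28 and 4.26.

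**Figure D1:**
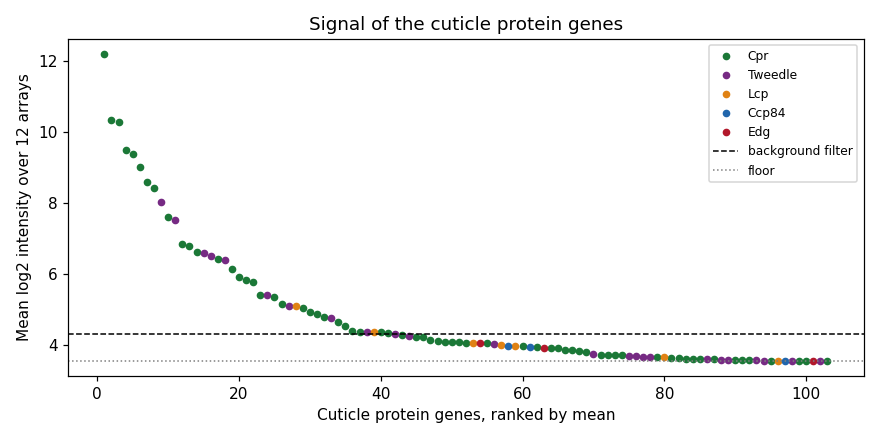
Mean log2 intensity over 12 arrays (vertical axis) of the 103 cuticle protein genes, ranked from brightest to dimmest and coloured by family, with the background filter (dashed) and the floor (dotted). The 42 genes above the dashed line are 30 Cpr, 10 Tweedle and 2 Lcp genes, and probe sets differ in brightness for reasons of their own, so the ranks are not ranks of transcript level.

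Some names could not be followed. No probe set was assigned to Acp1 alone or to Lcp1, Lcp2, Lcp3 or Lcp4, and 7 probe sets annotated to a pair of genes, at least 1 of them a member, were kept apart. Only Cpr47Ef and Lcp65Aa had a second probe set, and for Cpr47Ef the second one was above the floor on just 3 arrays. The filter acts on the mean over all groups. Of the 42 members 9 had at least 1 group mean below it (Cpr66Cb, Cpr97Eb, Cpr76Bd, Cpr11B, TwdlY, Lcp65Ac, Cpr30B, Cpr47Eb and TwdlN), and those that were lower in 1 group passed through the others. Conversely, 13 members that failed had a group mean above it. Counts over the 42 are therefore given as a description of these genes and not of all cuticle genes.

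Calls with feeding time were far more numerous than calls with diet, and most of them were falls. On high sugar 12 of the 42 were lower and 4 higher at 4 weeks than at 2 days (limma, adjusted p under 0.05), where 22.7% and 19.9% of all 10418 tested genes were lower and higher. On control diet 14 were lower and 4 higher, where 18.8% and 14.3% of all genes were. As shares of the 42, lower members made up 28.6% on high sugar and 33.3% on control diet, and higher members 9.52% on each. These shares are of members that passed the filter. In a fit with no filter the falling members were 13.6% of all 103 on each diet. Of all genes 19% fell on high sugar and 14.9% on control diet in that fit. It holds 61 members under the filter, of which 10 were at the floor on all 12 arrays and could not be called. The median log2 fold change over members was -0.19 on high sugar and -0.18 on control diet, against 0.03 and -0.01 over all genes tested. The comparisons on the 2 diets share no array, but both come from 1 fit over all 12 arrays and share its estimate of the spread. All 12 members that fell on high sugar also fell on control diet, where they were 85.7% of the 14. Of the 4 rising members on each diet 3 were common to both. The overlap of calls over all genes was not counted, so this overlap is not shown to be particular to cuticle genes. Of the families, 11 Cpr genes and 1 Tweedle gene fell on high sugar and 13 and 1 on control diet, while neither Lcp65Aa (-0.27 and -0.08) nor Lcp65Ac (0.10 and -0.38) passed on either.

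**Figure D2:**
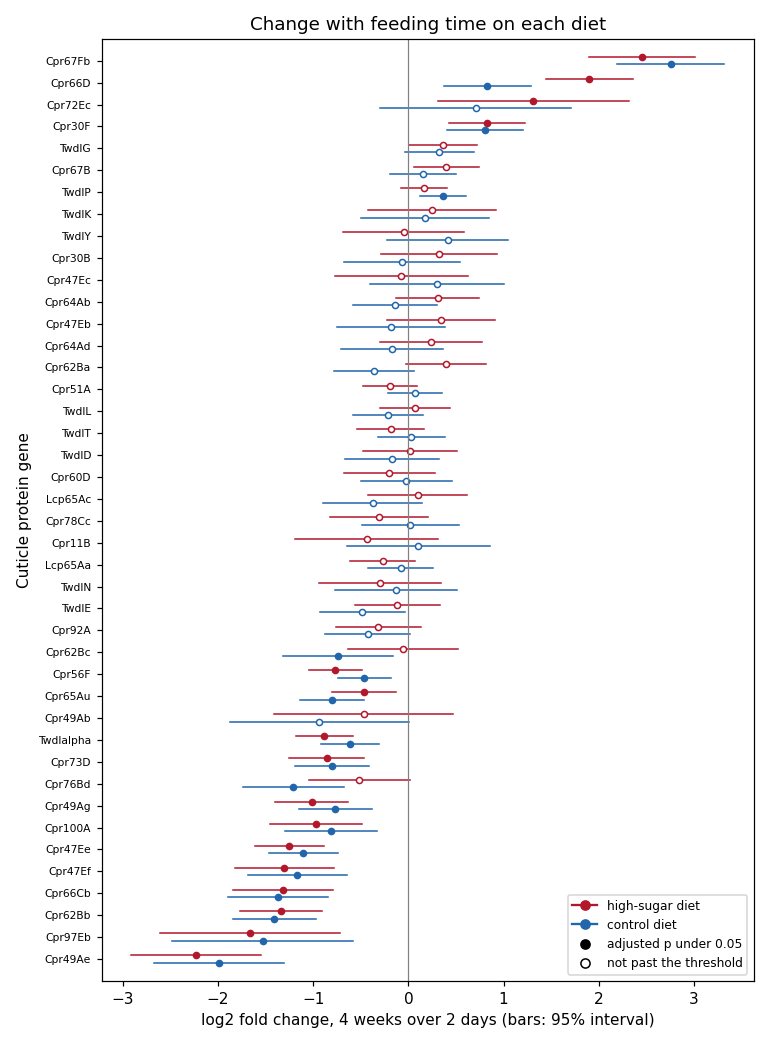
Log2 fold change of 4 weeks over 2 days (horizontal axis) for the 42 cuticle protein genes above background, on high-sugar diet (red, upper of each pair) and control diet (blue, lower). Points are limma estimates, bars their 95% intervals, and filled points passed an adjusted p under 0.05. Cpr49Ae lies at the bottom and Cpr67Fb at the top, and the 2 diets give estimates of the same sign for every gene that passed on both.

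Cpr49Ae (NCBI gene 36351) fell furthest of all members on both diets and was bright on every array. Its intensity on high sugar was 714, 521 and 447 at 4 weeks, against 1958, 3112 and 2806 at 2 days. On control diet it was 527, 1191 and 449 at 4 weeks, against 2562, 2097 and 3271 at 2 days. All arrays of 4 weeks lay below all arrays of 2 days on both diets, although replicate 2 on control diet stood well above the other two at 4 weeks. The fall was 4.69-fold on high sugar (log2 fold change -2.23, standard error 0.31, limma adjusted p = 0.000246) and 3.97-fold on control diet (-1.99, adjusted p = 0.000728). Its close neighbour Cpr49Ag (gene 36353) stood at 29.8, 27.7 and 32.5 at 4 weeks, against 52.1, 66.96 and 63.7 at 2 days on high sugar. It fell on both diets, with log2 fold changes of -1.02 and -0.77. Cpr49Af, which lies between them in the same run of genes, did not pass the background filter.

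Cpr62Bb (gene 38240) showed the same separation at 180.1, 266 and 257 on high sugar for 4 weeks, against 557, 647 and 554 for 2 days. On control diet its values were 202, 209 and 175 at 4 weeks and 479, 397 and 730.3 at 2 days. The groups of the 2 times did not overlap on either diet, and the log2 fold changes were -1.34 (standard error 0.20, adjusted p = 0.000348) and -1.41 (adjusted p = 0.000376). Its neighbour Cpr62Bc (gene 38241) was lower with time on control diet, at 27.3, 37.8 and 24.7 against 54.4, 35.9 and 60.4, groups that overlap. Its log2 fold change there was -0.74 (adjusted p = 0.049), and on high sugar it was -0.06 with an interval of -0.64 to 0.52. The call on control diet was lost without any of 8 single arrays (high sugar 1 or 2 and control 1 or 3 at both 4 weeks and 2 days) and under 4 other settings, no filter among them (adjusted p up to 0.17). The high-sugar arrays are not part of this comparison, and without any of them the value stayed at -0.74. The third gene of this run, Cpr62Ba, did not pass on either diet (0.39 and -0.36).

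A pair of adjacent genes fell together on both diets. Cpr47Ee (gene 36193) stood at 79.3, 54.8 and 64.7 at 4 weeks, against 148, 172 and 149 at 2 days on high sugar, and at 61.6, 68.6 and 63.9 against 134, 111 and 179 on control diet. Cpr47Ef (gene 36194) had 67.2, 47.4 and 41.6 at 4 weeks and 151, 135 and 97.3 at 2 days on high sugar, and 57.1, 81.4 and 46.5 and 144, 106 and 159 on control diet. For both genes every array of 4 weeks lay below every array of 2 days on the same diet. The falls were 2.38-fold and 2.47-fold on high sugar and 2.15-fold and 2.24-fold on control diet, with adjusted p-values of 0.000193, 0.00118, 0.000552 and 0.00369 by limma. The 2 other genes of the Cpr47E group above background, Cpr47Ec and Cpr47Eb, had values of -0.08 and 0.34 on high sugar and 0.30 and -0.18 on control diet, and did not pass.

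Smaller falls were measured for brighter and for dim members alike. Cpr65Au (gene 59158), the brightest probe set of the members, had 4825, 4272 and 3438 at 4 weeks and 5739.9, 5831 and 5618 at 2 days on high sugar. On control diet the values were 2647, 4289 and 3427 at 4 weeks, against 5773, 5319 and 6769 at 2 days. The arrays of 2 days were close together, those of 4 weeks were lower and more spread. The log2 fold change was -0.47 on high sugar (adjusted p = 0.028) and -0.81 on control diet (adjusted p = 0.00255). On high sugar the call was lost after quantile normalization, with no filter, and without replicate 2 or 3 at 4 weeks or any replicate at 2 days (adjusted p up to 0.123). Cpr56F (gene 37299) was tightly grouped on high sugar at 4 weeks, at 90.0, 88.8 and 85.6, against 144, 177 and 133 at 2 days. It fell by 0.77 on the log2 scale there and by 0.47 on control diet. The call on control diet was lost without control replicate 1 or 3 at 2 days (adjusted p up to 0.0753).

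**Figure D3:**
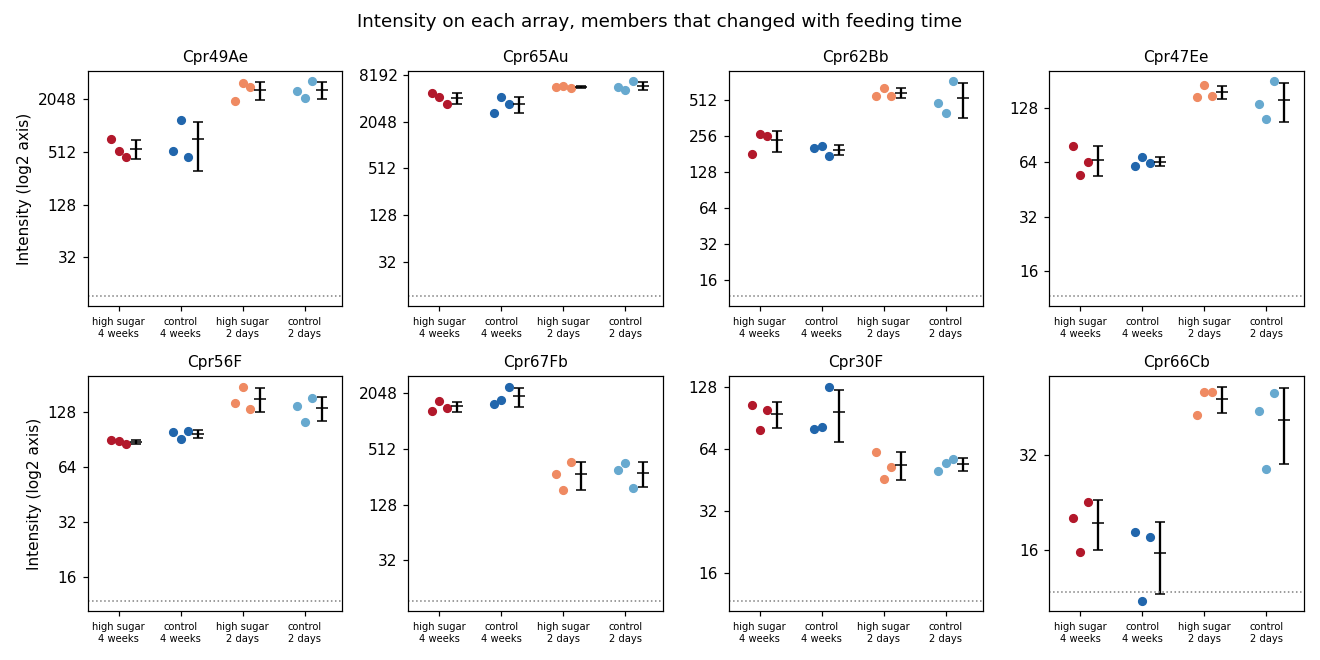
Intensity on each array (vertical log2 axis, a scale of its own in each panel) of 8 cuticle genes in the 4 groups of diet and time, with the group mean and SD (n = 3) in black beside the points and the floor as a dotted line. Cpr67Fb and Cpr30F are higher at 4 weeks than at 2 days on both diets, and the other 6 are lower.

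Of the remaining falling members, Cpr73D (gene 39897) was at 50.9, 48.7 and 47.6 at 4 weeks, against 106, 90.1 and 73.8 at 2 days on high sugar, with log2 fold changes of -0.86 there and -0.80 on control diet. Cpr100A, named after its values were seen because it fell outside the naming rule, had -0.97 and -0.81, and lost its call on control diet without control replicate 3 of either time (adjusted p up to 0.0648). A further 3 genes were near the floor at 4 weeks, so their folds rest on dim signals. Cpr66Cb (gene 38940) had 20.2, 15.7 and 22.6 at 4 weeks and 42.8, 50.8 and 51.0 at 2 days on high sugar, and 18.3, 11.0 and 17.5 and 44.4, 28.9 and 50.6 on control diet, where replicate 2 at 4 weeks was under the floor. All arrays of 4 weeks lay below all arrays of 2 days, and the log2 fold changes on floored values were -1.31 and -1.37. Cpr97Eb (gene 43259) was above the floor on 1 of 3 control arrays at 4 weeks, and its values at 2 days ranged widely, from 15.1 to 68.7 on control diet. It passed on both diets (-1.66 and -1.53), but on control diet the size is set by the floor and was -0.91 with a floor at the 30th percentile, where the call was lost. The call on control diet was also lost without control replicate 1 at 4 weeks or replicate 1 or 3 at 2 days (adjusted p up to 0.0853). The last of the 3, Cpr76Bd (gene 40123), was under the floor on 1 of 3 arrays at 4 weeks on each diet. It fell on control diet (-1.21, adjusted p = 0.00319), with 13.2, 15.1 and 6.83 at 4 weeks against 29.3, 31.1 and 31.6 at 2 days. The size of this fall depends on the floor and ran from -1.47 with a floor at the 10th percentile to -0.61 with one at the 30th. On high sugar it had a value of -0.51 and did not pass (adjusted p = 0.106).

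The gene that rose most was Cpr67Fb (gene 39225). On high sugar its intensity was 1311, 1669 and 1397 at 4 weeks, against 274, 185 and 366 at 2 days. On control diet it was 1556, 1707 and 2376 at 4 weeks and 301, 356 and 192 at 2 days. The lowest array of 4 weeks stood far above the highest array of 2 days on both diets. The rise was 5.48-fold on high sugar (log2 fold change 2.45, standard error 0.26, limma adjusted p = 4.77e-05) and 6.74-fold on control diet (2.75, adjusted p = 2.82e-05). The 2 genes beside it, Cpr67Fa1 and Cpr67Fa2, did not pass the background filter. Cpr30F (gene 318997) rose on both diets, to 105, 78.7 and 99.0 on high sugar at 4 weeks, against 61.9, 45.6 and 52.4 at 2 days, and its log2 fold changes were 0.82 and 0.81. The groups of the 2 times did not overlap on either diet.

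Both remaining Cpr genes that rose encode proteins of the corneal lens, the cuticle that covers each unit of the Drosophila eye. Cpr66D (gene 38990) had 472, 555 and 322 at 4 weeks, against 119.6, 93.7 and 145 at 2 days on high sugar, and 221, 254 and 197 against 106, 157 and 119 on control diet. The 4 groups formed steps, with control at 4 weeks above both 2-day groups and below high sugar at 4 weeks. It rose 3.73-fold on high sugar (adjusted p = 7.1e-05) and 1.77-fold on control diet (adjusted p = 0.0108). Cpr72Ec (gene 39816) had 827, 768 and 1115 at 4 weeks and 425, 233 and 467 at 2 days on high sugar, a log2 fold change of 1.31 (adjusted p = 0.0366). That call was lost with no filter, with the replicate block, and without any replicate of high sugar at 4 weeks or replicate 1 or 2 at 2 days (adjusted p up to 0.146). On control diet it had 660.2, 722 and 485 at 4 weeks and 342, 935 and 166 at 2 days and did not pass (0.71, adjusted p = 0.254). Control replicate 2 at 2 days alone was high, and without it the value was 1.37 with an adjusted p of 0.0106.

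A lens gene outside the families went the other way. The gene retinin, which encodes another corneal lens protein and was chosen for comparison after values were seen, had 367, 336 and 555 at 4 weeks, against 2565, 3463 and 4137 at 2 days on high sugar. On control diet the values were 286, 353 and 457 at 4 weeks and 3601, 3395 and 3159 at 2 days. It fell on both diets with log2 fold changes of -3.02 and -3.24 (limma adjusted p = 4.12e-06 and 2.56e-06), with no overlap between times. A further lens gene, Crys, was not named on the array. Of the photoreceptor genes, inaD and Arr1 fell with time on both diets (inaD -0.37 and -0.75, Arr1 -0.31 and -0.51), and Arr2 and trp did not pass. Of all genes 22.7% fell on high sugar and 18.8% on control diet. The 4 of 7 listed photoreceptor genes named on the array summed to 18082 to 18683 at 4 weeks and 18519 to 20591 at 2 days on high sugar. On control diet they summed to 16407 to 16736 and 19558 to 20496. The part of eye tissue in the lens gene values was not tested.

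**Figure D4:**
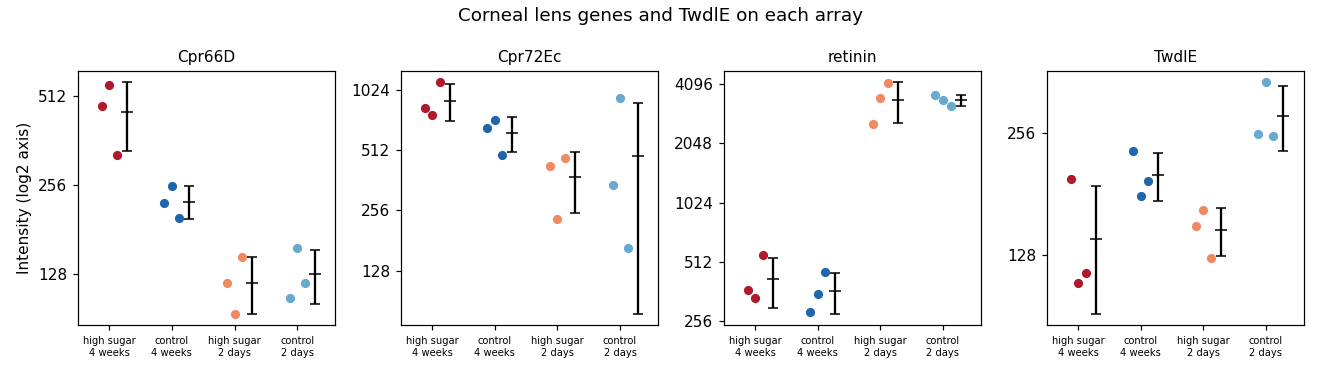
Intensity on each array (vertical log2 axis, a scale of its own in each panel) of Cpr66D, Cpr72Ec, retinin and TwdlE in the 4 groups of diet and time, with mean and SD (n = 3) in black beside the points. Cpr66D is highest on high sugar at 4 weeks, retinin is lower at 4 weeks on both diets, and TwdlE has lower means on high sugar than on control diet at both times.

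Of the 10 Tweedle genes above background, 1 was lower with time on each diet and 1 higher on control diet, with modest folds. Of all genes 22.7% were lower and 19.9% higher on high sugar, and 18.8% and 14.3% on control diet. With 10 genes a difference from these shares was not tested. Twdlalpha (gene 326223) fell on both diets, with 70.7, 60.9 and 57.3 at 4 weeks against 112, 128 and 108 at 2 days on high sugar, and 66.1, 75.4 and 91.4 against 104, 119 and 132 on control diet. The log2 fold changes were -0.88 (adjusted p = 0.000485) and -0.61 (adjusted p = 0.00637), and no array of 4 weeks reached the arrays of 2 days. TwdlP (gene 43201) rose on control diet, at 287, 292 and 383 against 243, 245 and 255, by a log2 fold change of 0.36 (adjusted p = 0.0256). This call was lost with only the arrays compared, without control replicate 3 at 4 weeks (0.23) and without any control replicate at 2 days (adjusted p up to 0.0749), and on high sugar the value was 0.16. TwdlD, in which mutations alter body shape, had 0.02 on high sugar (95% interval -0.47 to 0.51) and -0.17 on control diet (-0.67 to 0.32). The other members TwdlT, TwdlL, TwdlG, TwdlK, TwdlY and TwdlN did not pass on either diet, with values between -0.30 and 0.41, and neither did TwdlE (-0.12 and -0.48). TwdlT passed on high sugar without high-sugar replicate 1 at 2 days (-0.41, adjusted p = 0.0170), and TwdlE on control diet without high-sugar replicate 1 at 4 weeks (adjusted p = 0.0278). The array left out for TwdlE is not part of the control comparison, and the value of TwdlE stayed at -0.48.

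The 13 Cpr genes that passed on neither diet ranged from Cpr49Ab, the second brightest member, to Cpr47Eb, close to the filter. Cpr51A (gene 36613), a bright one, had 321, 342 and 348 at 4 weeks, against 375, 350.3 and 439 at 2 days on high sugar, and log2 fold changes of -0.20 and 0.07. The genes Cpr64Ab and Cpr64Ad of the same run had 0.31 and 0.24 on high sugar and -0.14 and -0.17 on control diet. For the 13 genes the values ran from -0.47 to 0.40 on high sugar and from -0.94 to 0.30 on control diet.

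Cuticle genes under the background filter could be followed only in a fit with no filter, in which all 103 members and 11983 genes were tested. There 14 members were lower (13.6%) and 5 higher (4.85%) with time on each diet, while of all genes 19% were lower and 16.8% higher on high sugar and 14.9% and 11.7% on control diet. Both shares of the members lay below those of all genes, though the falls on control diet were close. Of the 103 members 61 were under the filter, and 10 of these were at the floor on all 12 arrays and could not be called. Of all named genes 86.9% lay above background, so the shares do not compare like with like. Among called members under the filter were Cpr92F, lower on both diets (-0.74 and -1.18), and Cpr49Ah, higher on both (0.90 and 0.60). Both were named after their values were seen. Cpr92F averaged 10.1 ± 3.12 at 4 weeks and 21.0 ± 4.94 at 2 days on high sugar (SD, n = 3 each), a mean under the floor at 4 weeks. TwdlM and Lcp65Ae were lower and Twdlbeta higher with time on high sugar in this fit.

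Replicates differed widely for some bright members, and several members deviated together. Cpr49Ab (gene 36345) had 1866, 1306 and 692 on high sugar and 460.4, 1911 and 705 on control diet at 4 weeks, and 1831, 1207 and 2020.0 and 1615, 1609 and 1678 at 2 days. The control arrays of 2 days were nearly equal, while those of 4 weeks ran from the lowest value of the gene to close to its highest. It did not pass with time on either diet (-0.47 and -0.94), but without control replicate 2 at 4 weeks the value on control diet was -1.52 with an adjusted p of 0.00613. That array also held the highest 4-week values of Cpr49Ae and Cpr100A. On it 28 of the 42 members lay above their group mean, as did 30 on replicate 1 of high sugar at 4 weeks, where 11 did so on replicate 2. The median deviation over all genes tested was -0.02, 0.03 and -0.02 log2 units on these arrays in turn. How many of all genes lay above their group mean was not counted. Pearson's r of deviations from the group means over the 12 arrays was 0.94 between Cpr65Au and Cpr60D and 0.85 between Cpr65Au and Cpr49Ab, pairs picked as among the highest of 861, whose median was 0.10. These points share their arrays and the normalization of each array. Cpr67B (gene 39081), another bright member, did not pass on either diet (0.40 and 0.15), but on high sugar its adjusted p was 0.0222 without high-sugar replicate 1 at 2 days and 0.0431 without control replicate 2 at 4 weeks. The control array is not part of the comparison on high sugar, and without it the value stayed at 0.40.

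Many members are neighbours on the chromosome, in the order of the RefSeq gene table (assembly Release 6 plus ISO1 MT). Of the 103, 68 lie in 20 runs of consecutive genes that meet the rule, and 26 of these 68 were above background (38.2%), as were 16 of the 35 that stand alone (45.7%). Some runs held no gene above background. In the run of 8 genes from Edg84A to Ccp84Aa, 4 were named on the array and 0 were above background, and the 3 genes from Cpr65Ea to Cpr65Ec gave 0 as well. In the run of 15 genes that ends at Lcp65Aa, 3 of 9 named genes were above background, and among them Cpr65Au fell with time while Lcp65Ac and Lcp65Aa did not pass. The largest Tweedle run, 12 genes from TwdlM to TwdlD, held 5 genes above background, of which TwdlP alone passed for time, on control diet.

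Diet at 2 days gave no call among the cuticle genes. None of the 42 passed by limma, where 0.144% of all genes did, all of them lower, and at an unadjusted p under 0.05 2 members were lower and 0 higher, against 5.15% and 3.16% of all genes. The median log2 fold change of high sugar over control was -0.02, against -0.0040 over all genes, and for 37 of 42 members the 95% interval lay within 1 log2 unit of 0. The widest interval, that of Cpr72Ec, reached 1.003 log2 units to each side of its estimate. TwdlE (gene 34075) was the member with the lowest value, at 151, 166 and 126 on high sugar against 255, 343 and 252 on control diet. Its groups did not overlap, and the log2 fold change was -0.94 (95% interval -1.38 to -0.49, limma adjusted p = 0.128). Without replicate 1 of high sugar at 4 weeks the adjusted p was 0.0412. That array is not part of this comparison and the value stayed at -0.94, so the shared fit changed and not the groups compared. Next came Cpr62Ba (-0.55) and Cpr47Eb (-0.38), and at the other end Cpr97Eb (0.47), Cpr11B (0.39) and Cpr47Ec (0.38), and none of these passed.

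At 4 weeks 1 cuticle gene, Cpr66D, was called. It averaged 449.8 ± 118 on high sugar and 224 ± 28.6 on control diet (SD, n = 3 each), with all high-sugar arrays above all control arrays. The difference was 1.97-fold (log2 fold change 0.98, 95% interval 0.52 to 1.43, limma adjusted p = 0.0332), where 0.806% of all genes were higher and 1.12% lower. No member was called lower, and at an unadjusted p under 0.05 3 members were higher and 3 lower, against 10.2% and 9.66% of all genes. The call was lost without high-sugar replicate 1 or 2 or control replicate 1 or 3 at 4 weeks. It was also lost under 4 other settings given with the limits. The adjusted p was 0.142 without high-sugar replicate 2 and 0.0953 with no filter. On these arrays 1 of 4 named photoreceptor genes, inaD (0.45), and 1 of 6 named neuronal genes, Syn (0.57), were higher on high sugar. The photoreceptor genes summed to 18082 to 18683 on high sugar and 16407 to 16736 on control diet, and the neuronal genes to 3833 to 4075 and 2811 to 3246. Their part in the Cpr66D value was not tested. At 2 days the value of Cpr66D was -0.10, and the test of the difference between the 2 diet effects gave 1.07 with an adjusted p of 0.553, so the effects are not shown to differ. No member and 0% of all genes passed that test, and at an unadjusted p under 0.05 2 members were higher and 0 lower, against 4.34% and 2.93% of all genes. Cpr62Bc (0.68, interval 0.10 to 1.26) and Cpr72Ec (0.54, -0.47 to 1.54) had the next values above 0 and TwdlE (-0.57), TwdlN (-0.52) and TwdlY (-0.46) the lowest ones, and none of these 5 passed. For the 42 members the median was 0.04, against 0.01 for all genes.

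**Figure D5:**
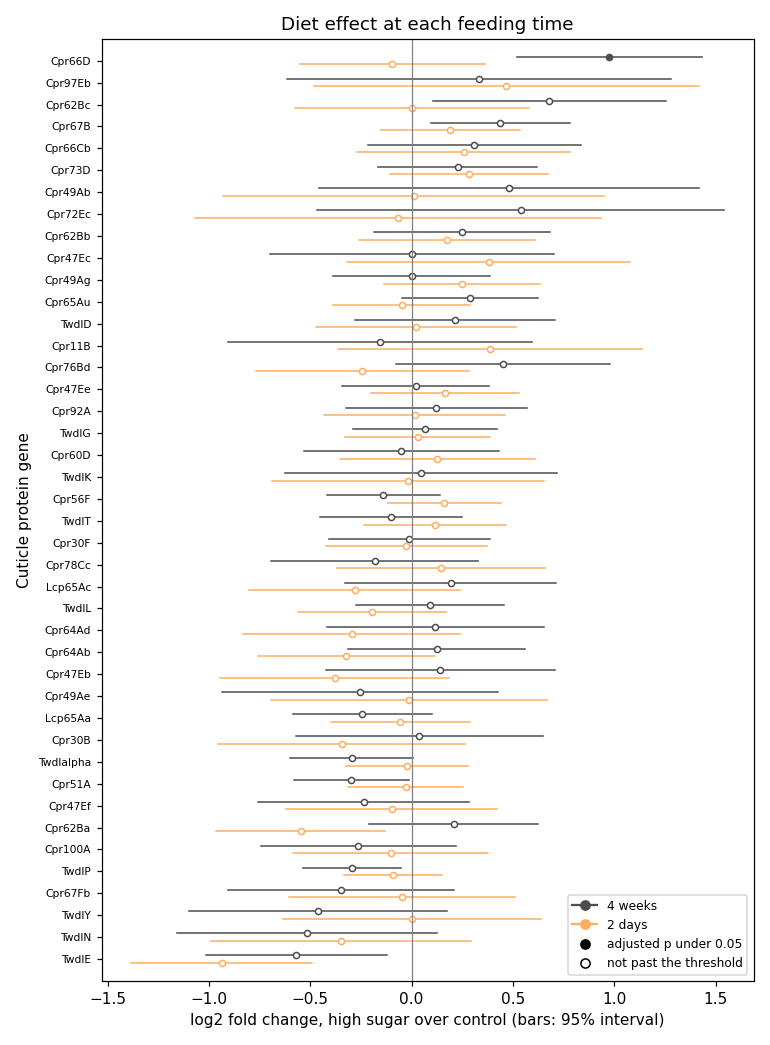
Log2 fold change of high-sugar over control diet (horizontal axis) for the 42 cuticle protein genes above background at 4 weeks (grey, upper of each pair) and 2 days (orange, lower). Points are limma estimates, bars their 95% intervals, and a filled point passed an adjusted p under 0.05. Only Cpr66D at 4 weeks is filled, and TwdlE at the bottom is below 0 at both times.

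Averaged over both times, TwdlE was lower on high sugar. At 4 weeks it had 197, 109 and 115 on high sugar, against 232, 179 and 195 on control diet, groups that overlap through 1 high-sugar array. The average effect was -0.75 on the log2 scale (standard error 0.15, limma adjusted p = 0.0165), that is 1.69-fold lower, where 1.73% of all genes were lower and 0.893% higher. It was the 1 member that passed this test, and at an unadjusted p under 0.05 2 members were lower and 2 higher, against 9.43% and 10.3% of all genes. With no filter on dim probe sets the adjusted p was 0.0609. Without replicate 1 of high sugar at 4 weeks the value at 4 weeks was -0.84 with an adjusted p of 0.0321.

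Other genes of cuticle formation were called in both directions with time, and the shares called are to be read beside those of all genes, 19.9% higher and 22.7% lower on high sugar and 14.3% and 18.8% on control diet. Among 6 measured genes of chitin synthesis and assembly 3 rose with time on high sugar and 1 on control diet, with medians of 0.26 and 0.02. The gene knk, needed to organise chitin, rose on both diets (0.38 and 0.65), while mmy (0.30) and Gfat2 (0.32), which act in the supply of the chitin precursor, rose on high sugar. The chitin synthase gene kkv was under the background filter. Chitinases, their relatives and chitin deacetylases had 9 of 21 genes higher (42.9%) and 2 lower (9.52%) on high sugar, and 8 higher (38.1%) and 1 lower (4.76%) on control diet, a difference from all genes that was not tested. Examples were the deacetylase gene Cda9 (1.64 and 2.09), the chitinase gene Cht8 (0.49 and 0.66) and the chitinase-like gene Idgf2 (0.48 and 0.50). On control diet Cht6 was lower (-1.23).

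Chitin-binding genes outside the rule and a list of other genes linked to cuticle structure gave falls and no rises, in small numbers. Among 12 other chitin-binding protein genes 3 fell with time on each diet, a share close to that of all genes that fell (22.7% and 18.8%), and 0 rose. Among those that fell were obst-A (-0.99 and -1.18) and Gasp (-0.53 and -0.59), known from larval cuticle and tracheae. Of 6 measured genes on the list linked to cuticle structure, 3 fell on high sugar and 2 on control diet. The genes pio (-0.41 and -0.62) and fw (-0.59 and -0.69) fell on both, and resilin and Acp65Aa were under the filter. Not every gene on this list is shown here to encode a structural protein. For 13 tanning and pigment genes the calls went both ways, 3 higher and 3 lower on high sugar and 1 higher and 3 lower on control diet. The gene tan (t) had -0.35 and -0.68 and yellow-e -1.07 and -1.002, while the laccase gene stw, which acts in cuticle hardening, had 0.55 on high sugar. Among 15 ecdysone-linked and cuticle regulators 3 rose on high sugar, as large a share as that of all genes (19.9%), 4 rose on control diet (26.7%, against 14.3% of all genes) and 0 fell, with the receptor gene EcR at 0.52 and 0.43 and the epidermal factor gene grh at 0.42 and 0.33.

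With diet these lists gave few calls. At 2 days 0 of their genes passed. At 4 weeks Peritrophin-15a, a chitin-binding gene of the gut lining, was lower on high sugar (-1.35, limma adjusted p = 0.0121). On the same arrays 2 of 5 named midgut genes were lower, and the 5 summed to 31952 to 36105 on high sugar and 39874 to 44871 on control diet. The part of gut tissue in the Peritrophin-15a value was not tested. Of 7 hydrocarbon and oenocyte genes FASN2 was higher (0.78) and FASN3 lower (-0.56), both of them fatty acid synthase genes. No gene of the other 5 lists passed at 4 weeks. Averaged over both times, where 0.893% of all genes were higher and 1.73% lower, the deacetylase gene Cda5 (0.44, limma adjusted p = 0.0201), FASN2 (0.58) and grh (0.34) were higher on high sugar. Peritrophin-15a (-0.83), FASN3 (-0.27) and the mucin gene Muc11A (-0.22, adjusted p = 0.0373) were lower. With time on high sugar FASN2 was higher (0.56) and FASN3 lower (-0.49), beside 19.9% and 22.7% of all genes. On control diet 0 of the 7 hydrocarbon and oenocyte genes passed with time.

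Markers of other tissues moved with time as well. Their counts are to be read beside the shares of all genes, 22.7% lower and 19.9% higher on high sugar. On control diet these shares were 18.8% and 14.3%. The lists are short and no difference from all genes was tested. All 6 named muscle genes of 8 listed fell on control diet and 5 on high sugar, and their summed intensity was 8681 to 9874 at 4 weeks and 16124 to 20169 at 2 days on high sugar. On control diet it was 7116 to 8085 and 15964 to 17057. Of the epidermal and tracheal factor genes, 4 of 5 named, 3 rose on high sugar and 2 on control diet. They summed to 2111 to 2387 at 4 weeks and 1516 to 1638 at 2 days on high sugar, and to 1612 to 1877 and 1345 to 1430.2 on control diet. Every 4-week sum of these factors was above every 2-day sum on the same diet. The factor gene ct had negative values (-0.12 on high sugar and -0.11 on control diet) and did not pass. Both ct and grh are also among the ecdysone-linked and cuticle regulators above, so the rise of grh is counted in both lists. Of 10 testis genes 6 fell on each diet, and of 5 accessory gland genes 4 did. Of 6 named neuronal genes 1 fell on high sugar and 2 on control diet, and 0 rose. Of 5 named midgut genes 2 fell on high sugar and 0 on control diet, and of 4 fat body genes 1 rose and 1 fell on high sugar and 0 passed on control diet. The part of tissue composition in the cuticle gene values was not tested.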

How the data were processed

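Values came from whole-fly Affymetrix arrays, 12 in all, of Canton-S males on high-sugar or control diet. The deposited values are linear probe set intensities that the authors made in dChip with a perfect match and mismatch model and normalized between arrays, per the series' design text. The baseline array and target level are not given in the sources used here. From these deposited intensities, values under the pooled 20th percentile (11.8) were set to that floor and log2 was taken. Of the probe sets, 13647 were annotated to 1 gene, 402 to several and 4720 to none, and 100 control probe sets were left out. Symbols were updated through gene IDs in RefSeq (Release 6), which matched 13544 probe sets. Probe sets with a mean under the 30th percentile of all probe set means were left out and the brightest one of each gene was kept, which left 10418 genes.

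limma 3.58.1 in R 4.3.3 (lmFit on 4 group means over 12 arrays, eBayes with a trend) gave 6 contrasts, each adjusted by the Benjamini-Hochberg method over all genes tested, and a call is an adjusted p under 0.05. The fit was tested on simulated data. Intensities are printed as deposited, and fold changes come from floored log2 values. Alternatives were 2 normalizations, 2 floors, 2 filters, no trend, only the arrays compared, a block for the replicate number, averaging a gene's probe sets, and each array left out. Members named were the 6 brightest, up to 8 called each way per contrast with the smallest adjusted p, up to 3 each way with the largest diet change, the Edg genes and all Tweedle genes above background. From each list of other genes up to 3 with the smallest adjusted p were named. The members and gene lists were chosen with earlier results of these data known. No scan dates or batches were available to test, so processing batch and group cannot be told apart. No sequences are shown.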

Additional observations from a re-analysis of the deposited data

Results flagged for a closer look

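A signal lay in probe sets that the comparisons did not use. Of 7 probe sets annotated to a pair of genes of which at least 1 is a cuticle gene, 4 were above the filter and above the floor on all 12 arrays. Probe set 1626386_at had a mean intensity of 458 over the 12 arrays. Probe set 1641474_s_at had a mean of 83.7, with group means of 28.1 on high sugar and 22.9 on control diet at 4 weeks, and of 143 and 141 at 2 days. Probe set 1640975_at had a mean of 45.9, with 28.7 and 34.9 at 4 weeks and 61.7 and 58.2 at 2 days. Probe set 1632080_s_at had a mean of 29.99. Which gene of each pair gave the signal cannot be told from these values, and none was tested. The groups of 3 arrays were too small to be searched for single outlying arrays.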

How the results depend on the processing

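Of 36 called gene results 27 were called under all 22 alternatives that could give a value, 9 lost their call under at least 1, and 0 reversed. The count of cuticle genes higher with diet at 4 weeks was 0 with no filter, with no trend in the variance, with the replicate block and with only the arrays compared, and that of genes lower with diet on average was 0 with no filter. With the filter at 50% only 15 cuticle genes were tested, the counts of falling genes were 6 on each diet, all among those called before, and the median change with time on control diet was -0.47. With each array left out in turn, genes lower with diet numbered 0 to 1 at 2 days and at 4 weeks, and those higher at 4 weeks 0 to 1. The counts with time were 3 to 5 higher and 11 to 12 lower on high sugar, and 3 to 4 higher and 10 to 15 lower on control diet. TwdlG was called with time on high sugar without a trend (adjusted p = 0.0492) and Cpr67B after quantile normalization (0.0373) or centring (0.0472), and TwdlE on control diet with only the arrays compared (0.0490). With the floor at the 30th percentile the fall of Cpr97Eb on control diet was -0.91 and lost its call (0.0706), and that of Cpr76Bd was -0.61. With the replicate block the adjusted p was 0.0578 for Cpr66D with diet at 4 weeks, 0.0523 for Cpr72Ec with time on high sugar and 0.0759 for Cpr62Bc with time on control diet, and it changed no other call of a named gene. With no filter the adjusted p was 0.0662 for Cpr65Au and 0.0890 for Cpr72Ec with time on high sugar and 0.0893 for Cpr62Bc with time on control diet, and with only the arrays compared it was 0.0744 for TwdlP. The replicate numbers are not shown to pair the arrays, since correlations of deviations between same-numbered arrays of different groups ran from -0.23 to 0.15 and exceeded 0.1 in 4 of 18 pairs. Restricting the fit to the arrays compared gives no value for the average and the difference of diet effects, which use all 12. Signals near the floor limit what could be seen for 61 of the 103 members.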
